A study of Saccharomyces cerevisiae with 12 samples.

Results

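The 10 genes described here encode enzymes of peroxisomal fatty acid oxidation in the yeast Saccharomyces cerevisiae, together with 1 membrane protein of the peroxisome. They were listed by ORF name as genes of this pathway, with no threshold on their measured values: FAA2 (YER015W), POX1 (YGL205W), FOX2 (YKR009C), POT1 (YIL160C), SPS19 (YNL202W), ECI1 (YLR284C), DCI1 (YOR180C), CTA1 (YDR256C), CAT2 (YML042W) and PEX11 (YOL147C). All 10 had a value on every array, out of 5769 genes with values. Expression was profiled on 12 one-color NimbleGen arrays of 2 haploid strains. The tup1Δ strain came from the yeast deletion collection and lacks TUP1, which encodes a general corepressor of transcription, and the WT strain was BY4741, so the mutant is represented by a single deletion strain. Mid-log cells in YPD, a rich medium with glucose, received either 100 nM rapamycin, which inhibits TOR complex signaling, or the solvent DMSO at 0.1%, for 30 min at 30°C. There were 2 arrays of tup1Δ in rapamycin, 2 of tup1Δ in DMSO, 4 of WT in rapamycin and 4 of WT in DMSO, and the series' design text gives separate cultures for the replicates, those of WT each split between the treatments. No condition contained oleate.

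In yeast, beta-oxidation of fatty acids takes place in peroxisomes rather than in mitochondria. A fatty acid is activated to its CoA ester, and an oxidase, a bifunctional hydratase and dehydrogenase, and a thiolase then release acetyl-CoA in repeated rounds. Auxiliary enzymes prepare unsaturated chains, catalase removes the hydrogen peroxide made by the oxidase, and acetyl units leave the organelle as acetylcarnitine or through the glyoxylate cycle. Many of these genes are known to be repressed on glucose and induced on oleate through the Oaf1-Pip2 heterodimer and Adr1, and the kinase Snf1 is needed for release from glucose repression. Mig1 is a repressor that recruits the Tup1-Cyc8 complex to glucose-repressed promoters.

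The values are log2 array values normalized by Robust Multi-array Average (RMA), whose medians lay between 11.48 and 11.52 on the 12 arrays and which ran from 7.85 to 15.52 over all genes. TUP1 (YCR084C) had values between 7.95 and 8.23 on the 4 tup1Δ arrays and between 13.66 and 14.04 on the 8 WT arrays, so the strain of every array matched its label. WT replicates 1 and 2 and WT replicates 3 and 4 formed pairs of similar arrays in DMSO, and in rapamycin replicates 3 and 4 did. Where the use of 1 pair alone moved a comparison of one of the 10 genes across an adjusted p of 0.05, the values with each pair are given. Fits with 1 pair take the WT spread from arrays within that pair, so their adjusted p-values leave out the spread between pairs. In DMSO the SD of the differences between WT arrays was 0.11 and 0.0647 within the pairs and 0.258 to 0.287 across them. All comparisons came from one limma fit over the 12 arrays, and a call required a Benjamini-Hochberg adjusted p under 0.05 over the 5769 genes together with a log2 fold change of 1 or more in either direction. "Rose" and "fell" are used only for called genes. Every adjusted p is from this fit unless another setting is named beside it, and the precision of the fit is limited by how few arrays there were. It counts the 4 WT arrays of a group as separate replicates, with no term for the pairs.

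In tup1Δ, rapamycin raised 5 of the 10 genes: POT1, CAT2, FOX2, ECI1 and POX1, with log2 fold changes of 1.92, 1.66, 1.35, 1.28 and 1.15. Over all genes, 5.34% were called higher and 6.52% lower in this comparison, and none of the 10 was called lower. At an adjusted p under 0.05 and any fold, 7 of the 10 were higher, where 29.6% of all genes were, and 1 was lower, where 23.5% of all genes were. The median log2 fold change was 0.85 over the 10 genes and 0.03 over all genes.

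In WT, the same treatment led to 0 calls among the 10 genes, where 5.41% of all genes were called higher and 7.8% lower. At an adjusted p under 0.05 and any fold, 9 of the 10 differed: 6 were higher, where 37.8% of all genes were, and 3 were lower, where 28.4% of all genes were. Most of the table thus passed the adjusted p in this comparison, and these shares lie on a high background. ECI1 had the highest log2 fold change of the 10 at 0.95 and POT1 the lowest at -0.69. The median over the 10 genes was 0.25, and over all genes it was 0.06.

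Between the strains in rapamycin, POT1, CAT2 and FAA2 were higher in tup1Δ, with log2 fold changes of 3.19, 2.10 and 1.04. These 3 of the 10 genes compare with 4.52% of all genes called higher, and none of the 10 was among the 0.867% called lower. At any fold, 7 of the 10 were higher and 0 were lower at an adjusted p under 0.05, against 16.2% and 27.5% of all genes. In DMSO, CAT2 alone among the 10 was called higher in tup1Δ, with a log2 fold change of 1.17, where 4.13% of all genes were called higher and 0.451% lower. There, 4 of the 10 were higher and 1 was lower at an adjusted p under 0.05 and any fold, against 15.3% and 27.3% of all genes. The medians over the 10 genes were 0.53 in rapamycin and 0.28 in DMSO, and those over all genes were -0.09 and -0.08.

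The rapamycin response was then compared between the strains in the same fit, as the log2 fold change in tup1Δ minus that in WT. POT1 was called, with a difference of 2.60 that placed it at 3 among the 5769 genes, and no other member was. Over all genes, 0.78% were called higher and 0.381% lower. At an adjusted p under 0.05 and any fold, 6 of the 10 genes had a higher response in tup1Δ, where 3.48% of all genes did, and 0 had a lower one, where 2.29% did. Those 6 were POT1, CAT2, POX1, SPS19, FOX2 and FAA2. These comparisons share arrays: the tup1Δ rapamycin arrays enter 3 of them, and each of the other groups also enters more than 1, so their values stand side by side and are not independent of each other.

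In the values themselves, 7 of the 10 genes had both tup1Δ rapamycin arrays above all 10 other arrays, which 12% of all genes did. CTA1, SPS19 and DCI1 were the exceptions. With rapamycin, the groups did not overlap for 9 of the 10 genes in tup1Δ and 9 in WT, against 84.2% and 59.5% of all genes. Between the strains they did not overlap for 8 in rapamycin and 6 in DMSO, against 59.4% and 63.1%. Groups described below as apart are to be read against these shares.

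**Figure D1:**
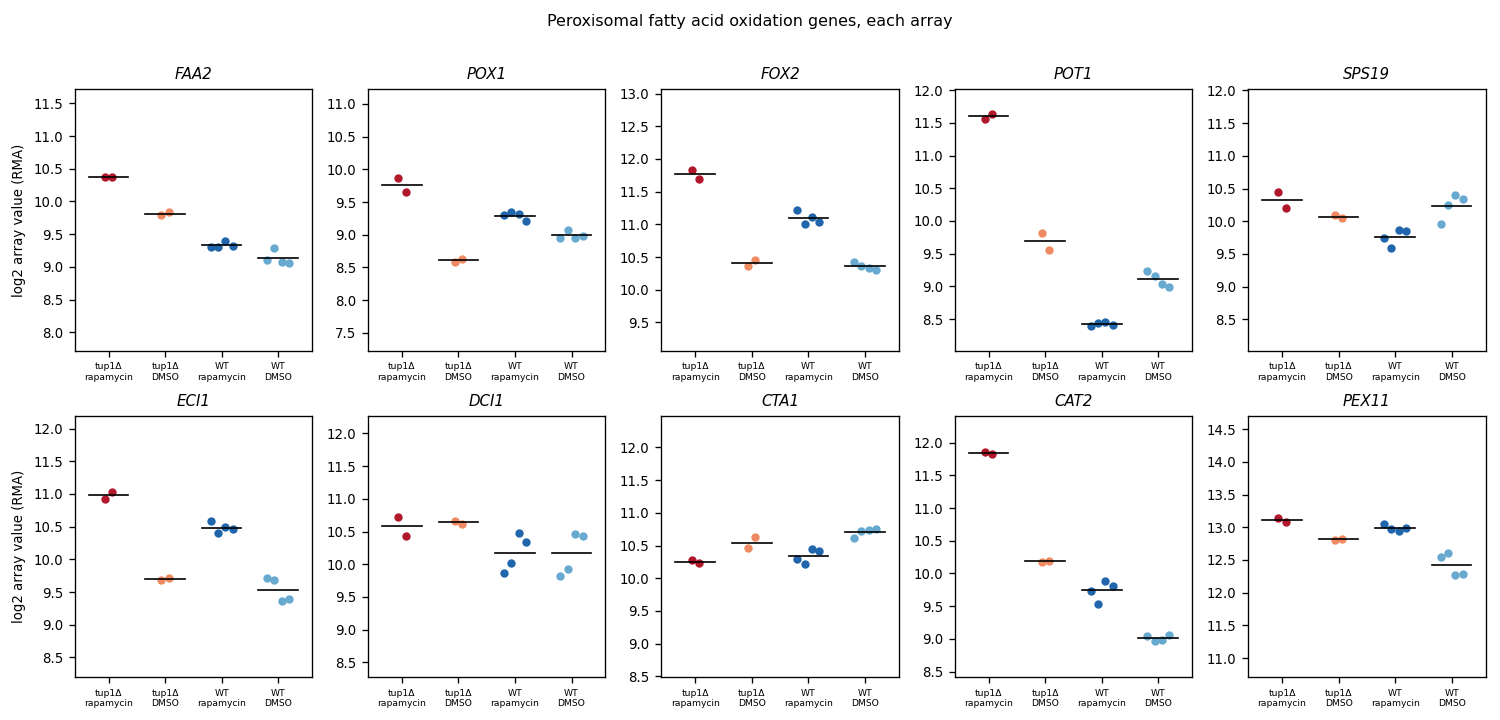
Log2 array values (y axis, 1 point for each array, bar at the group mean) of the 10 genes in tup1Δ in rapamycin and in DMSO (n = 2 each) and in WT in rapamycin and in DMSO (n = 4 each). Each panel has its own y range of equal height. In 7 panels both tup1Δ rapamycin points lie above every other point, and the DCI1 points of WT lie in a low and a high pair under each treatment.

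The activation step is represented by FAA2, a medium-chain acyl-CoA synthetase of the peroxisome. Its log2 values were 10.37 and 10.37 in tup1Δ in rapamycin and 9.79 and 9.83 in tup1Δ in DMSO. WT arrays had 9.31, 9.30, 9.39 and 9.32 in rapamycin and 9.11, 9.29, 9.08 and 9.06 in DMSO. The 4 groups did not overlap, and both tup1Δ groups lay above both WT groups. FAA2 was 2.06-fold higher in tup1Δ than in WT in rapamycin (log2 fold change 1.04, standard error 0.07, adjusted p = 3.24e-07), and in DMSO its log2 fold change was 0.68 (adjusted p = 1.43e-05), below the fold threshold. With rapamycin its log2 fold changes were 0.56 (adjusted p = 9.96e-05) in tup1Δ and 0.20 (adjusted p = 0.00734) in WT, neither of them called. The WT value was 0.10 (adjusted p = 0.223) with WT replicates 1 and 2 alone and 0.29 (adjusted p = 0.000199) with WT replicates 3 and 4 alone. The response differed between the strains by 0.36 (adjusted p = 0.0482), or by 0.45 and 0.27 with those pairs, and this adjusted p ran from 0.0112 to 0.202 over the 18 other settings tried.

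The 3 core enzymes of the beta-oxidation round each had their highest values in tup1Δ in rapamycin, but they were ordered differently among the other groups. POX1 encodes acyl-CoA oxidase, which catalyzes the first and hydrogen peroxide-forming step. Its log2 values were 9.86 and 9.66 in tup1Δ in rapamycin, 8.59 and 8.63 in tup1Δ in DMSO, 9.29, 9.34, 9.32 and 9.20 in WT in rapamycin, and 8.96, 9.07, 8.96 and 8.99 in WT in DMSO. The groups did not overlap, and tup1Δ had the lowest values in DMSO and the highest in rapamycin. In DMSO its log2 fold change between tup1Δ and WT was -0.39 (standard error 0.07, adjusted p = 0.00097), and in rapamycin it was 0.47 (adjusted p = 0.000256), both below the fold threshold. With rapamycin, POX1 rose in tup1Δ (log2 fold change 1.15, standard error 0.08, adjusted p = 3.97e-07), and in WT its log2 fold change was 0.30 (adjusted p = 0.000607), not called. The responses differed by 0.86 (standard error 0.10, adjusted p = 0.000323), also short of the fold threshold.

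FOX2 encodes the multifunctional enzyme with the hydratase and dehydrogenase activities of the middle steps. It had log2 values of 11.83 and 11.69 in tup1Δ in rapamycin, and of 10.36 and 10.45 in tup1Δ in DMSO. In WT it had 11.22, 11.01, 11.11 and 11.04 in rapamycin, against 10.42, 10.37, 10.34 and 10.30 in DMSO. The strains overlapped in DMSO and were apart in rapamycin, where tup1Δ was higher, and within each strain the rapamycin arrays lay above the DMSO arrays. FOX2 rose with rapamycin in tup1Δ 2.56-fold (log2 fold change 1.35, standard error 0.08, adjusted p = 1.65e-07). The corresponding value in WT was 0.74 (standard error 0.06, adjusted p = 6.18e-07), under the fold threshold, and the difference of the 2 responses was 0.61 (adjusted p = 0.00401). Between strains, its log2 fold change was 0.67 (adjusted p = 2.62e-05) in rapamycin and 0.05 (adjusted p = 0.587) in DMSO.

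POT1 encodes 3-ketoacyl-CoA thiolase, which cleaves off acetyl-CoA at the end of each round, and it showed the widest range of group means of the 10 genes, 3.19 on the log2 scale. Its log2 values were 11.57 and 11.64 in tup1Δ in rapamycin and 9.82 and 9.56 in tup1Δ in DMSO. They were 8.39, 8.44, 8.45 and 8.40 in WT in rapamycin and 9.23, 9.16, 9.04 and 8.997 in WT in DMSO. The groups were all apart, with the WT rapamycin arrays lowest and the tup1Δ rapamycin arrays highest. With rapamycin, POT1 rose 3.78-fold in tup1Δ (log2 fold change 1.92, standard error 0.10, adjusted p = 3.43e-08), while in WT the log2 fold change had the opposite sign, at -0.69 (standard error 0.07, adjusted p = 3.71e-06), below the fold threshold. All 4 split WT cultures had a lower value in rapamycin, by log2 differences from -0.85 to -0.59.

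In rapamycin POT1 was 9.09-fold higher in tup1Δ than in WT (log2 fold change 3.19, standard error 0.08, adjusted p = 1.49e-10), which placed it at 25 among the 5769 genes. In DMSO the corresponding value was 0.58 (standard error 0.08, adjusted p = 0.000234), not called. The difference between the responses, 2.60 (standard error 0.12, adjusted p = 3.08e-07), stayed between 2.48 and 2.73 over 18 other settings, which include leaving out each array in turn. The WT rapamycin values of POT1 lie near the low end of the table, where array values respond less to RNA level, so folds against them may be understated.

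**Figure D2:**
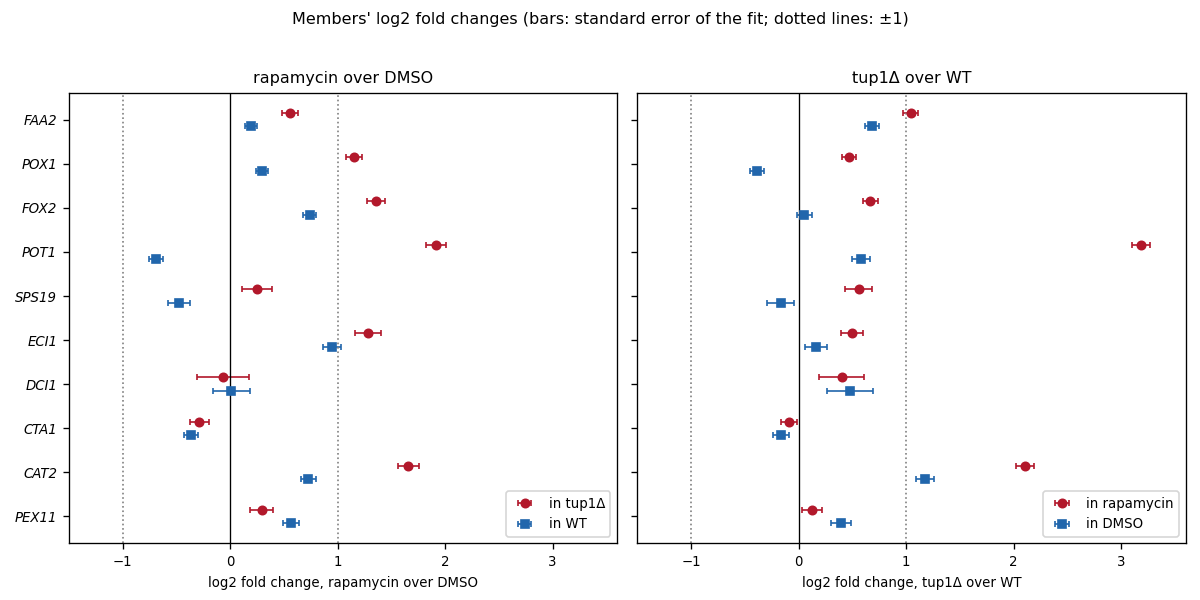
Log2 fold changes of the 10 genes (x axis, with bars for the standard error of the fit) for rapamycin over DMSO in tup1Δ and in WT (left panel) and for tup1Δ over WT in rapamycin and in DMSO (right panel). Dotted lines mark log2 fold changes of -1 and 1. POT1 lies at 1.92 in tup1Δ and at -0.69 in WT on the left, and at 3.19 and 0.58 on the right.

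Among the auxiliary enzymes for unsaturated fatty acids, ECI1 rose in tup1Δ with rapamycin, while SPS19 and DCI1 were called in no comparison. ECI1 encodes an enoyl-CoA isomerase. It had log2 values of 10.93 and 11.04 in tup1Δ in rapamycin and 9.69 and 9.71 in tup1Δ in DMSO, and WT had 10.58, 10.40, 10.49 and 10.47 in rapamycin and 9.72, 9.68, 9.36 and 9.39 in DMSO. Rapamycin arrays lay above DMSO arrays in both strains, and the strains overlapped in DMSO only. Its log2 fold change with rapamycin was 1.28 (standard error 0.12, adjusted p = 4.67e-06) in tup1Δ, which was called, and 0.95 (standard error 0.08, adjusted p = 1.66e-06) in WT, which was just short of the fold threshold. The WT value was 0.79 from replicates 1 and 2 and 1.11 from replicates 3 and 4, and it was 1.01 without WT DMSO replicate 1, so those last 2 settings make it a call. The responses differed between the strains by 0.33 (adjusted p = 0.233) with all arrays, by 0.49 (adjusted p = 0.0313) with WT replicates 1 and 2 and by 0.18 (adjusted p = 0.0848) with WT replicates 3 and 4. In rapamycin, tup1Δ over WT had a log2 fold change of 0.49 (adjusted p = 0.00297), and in DMSO 0.16 (adjusted p = 0.232), neither of them called. The DMSO value was 3e-04 (adjusted p = 0.998) with WT replicates 1 and 2 and 0.32 (adjusted p = 0.000248) with WT replicates 3 and 4.

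SPS19 encodes a dienoyl-CoA reductase. Its log2 values were 10.45 and 10.20 in tup1Δ in rapamycin, 10.10 and 10.04 in tup1Δ in DMSO, 9.74, 9.59, 9.87 and 9.85 in WT in rapamycin, and 9.96, 10.25, 10.40 and 10.35 in WT in DMSO. The WT rapamycin arrays were below all others, and the remaining groups overlapped or lay close together. In WT the log2 fold change with rapamycin was -0.48 (standard error 0.10, adjusted p = 0.00146), whereas in tup1Δ it was 0.25 (standard error 0.14, adjusted p = 0.166). These differed by 0.72 (standard error 0.17, adjusted p = 0.0345), below the fold threshold, with adjusted p-values from 0.000413 to 0.156 over 18 other settings. Between the strains the log2 fold change was 0.56 (adjusted p = 0.00425) in rapamycin and -0.17 (adjusted p = 0.309) in DMSO. The adjusted p of the rapamycin value ran from 0.000277 to 0.0713 over 13 other settings. The DMSO value was -0.03 (adjusted p = 0.83) with WT replicates 1 and 2 and -0.30 (adjusted p = 0.00436) with WT replicates 3 and 4.

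DCI1, a paralog of ECI1 with an assigned dienoyl-CoA isomerase activity, had log2 values of 10.72 and 10.43 in tup1Δ in rapamycin and 10.67 and 10.62 in tup1Δ in DMSO. In WT its values were 9.87, 10.02, 10.48 and 10.33 in rapamycin, against 9.82, 9.93, 10.46 and 10.44 in DMSO. WT replicates 1 and 2 lay below WT replicates 3 and 4 (mean difference -0.47 in rapamycin and -0.57 in DMSO), while the highest and lowest of the 4 group means were 0.48 apart. The rapamycin log2 fold changes were -0.07 (standard error 0.24, adjusted p = 0.845) in tup1Δ and 0.01 (standard error 0.17, adjusted p = 0.957) in WT. The strain comparison depended on the pair of WT arrays. In DMSO the difference of tup1Δ from WT on the log2 scale was 0.48 (adjusted p = 0.0916) with all arrays, 0.76 (adjusted p = 0.000742) with WT replicates 1 and 2, and 0.19 (adjusted p = 0.0714) with WT replicates 3 and 4. In rapamycin it was 0.40 (adjusted p = 0.145) with all arrays, 0.63 (adjusted p = 0.00178) with the first pair and 0.17 (adjusted p = 0.109) with the second. Because ECI1 and DCI1 are paralogs, shared probe signal between them was not tested.

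CTA1 encodes the peroxisomal catalase, and its values ran against those of most other members. It had log2 values of 10.28 and 10.23 in tup1Δ in rapamycin and 10.46 and 10.63 in tup1Δ in DMSO, and of 10.29, 10.23, 10.45 and 10.41 in WT in rapamycin against 10.62, 10.72, 10.74 and 10.75 in WT in DMSO. Rapamycin arrays lay below DMSO arrays in both strains, and the strains overlapped under each treatment. The rapamycin log2 fold changes were -0.29 (standard error 0.09, adjusted p = 0.0164) in tup1Δ and -0.36 (standard error 0.06, adjusted p = 0.00029) in WT, neither of them past the fold threshold. Their difference was 0.08 (adjusted p = 0.764). The adjusted p of the tup1Δ value ran from 0.00872 to 0.146 over 10 other settings. Between strains CTA1 had log2 fold changes of -0.09 (adjusted p = 0.364) in rapamycin and -0.17 (adjusted p = 0.101) in DMSO. With WT replicates 1 and 2 these were -0.0035 (adjusted p = 0.97) and -0.13 (adjusted p = 0.188), and with WT replicates 3 and 4 they were -0.17 (adjusted p = 0.0253) and -0.20 (adjusted p = 0.0122). The difference of the responses was 0.13 and 0.03 with these pairs.

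CAT2 encodes the carnitine acetyltransferase of peroxisomes and mitochondria, which passes acetyl groups from CoA to carnitine. Its log2 values were 11.86 and 11.83 in tup1Δ in rapamycin, 10.18 and 10.19 in tup1Δ in DMSO, 9.74, 9.53, 9.89 and 9.81 in WT in rapamycin, and 9.05, 8.97, 8.98 and 9.06 in WT in DMSO. No groups overlapped, and both tup1Δ groups were above both WT groups. CAT2 was higher in tup1Δ than in WT by a log2 fold change of 2.10 in rapamycin (4.29-fold, standard error 0.08, adjusted p = 5.52e-09) and of 1.17 in DMSO (2.25-fold, standard error 0.08, adjusted p = 1.09e-06). It rose with rapamycin in tup1Δ by 1.66 (3.16-fold, standard error 0.10, adjusted p = 1.27e-07), and in WT its log2 fold change of 0.73 (adjusted p = 2.82e-06) was below the fold threshold. The responses differed by 0.93 (standard error 0.12, adjusted p = 0.000841), which was just short of the fold threshold and reached 1.03 when only WT replicates 1 and 2 were used.

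PEX11 encodes a membrane protein of peroxisome proliferation and was called in no comparison. The log2 values were 13.14 and 13.08 in tup1Δ in rapamycin, 12.81 and 12.82 in tup1Δ in DMSO, 13.05, 12.97, 12.95 and 12.98 in WT in rapamycin, and 12.54, 12.60, 12.27 and 12.28 in WT in DMSO. The groups did not overlap, although those in rapamycin lay close together. With rapamycin PEX11 had log2 fold changes of 0.29 (standard error 0.11, adjusted p = 0.0366) in tup1Δ and 0.56 (standard error 0.08, adjusted p = 4.63e-05) in WT. The adjusted p of the tup1Δ value ran from 0.00285 to 0.148 over 10 other settings. The response in tup1Δ minus that in WT was -0.27 (standard error 0.13, adjusted p = 0.29). It was -0.14 (adjusted p = 0.304) with WT replicates 1 and 2 and -0.39 (adjusted p = 0.0014) with WT replicates 3 and 4, and the WT DMSO arrays of the first pair were higher by 0.30. In DMSO tup1Δ had a log2 fold change of 0.39 over WT (adjusted p = 0.00572), and in rapamycin 0.12 (adjusted p = 0.302). With WT replicates 1 and 2 these values were 0.24 (adjusted p = 0.0109) in DMSO and 0.10 (adjusted p = 0.194) in rapamycin, and with WT replicates 3 and 4 they were 0.54 (adjusted p = 4.14e-06) and 0.15 (adjusted p = 0.0168). The WT rapamycin response was 0.44 with the first pair and 0.69 with the second.

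Across the 12 arrays, the members followed each other unequally. FOX2 and ECI1 had a Pearson r of 0.98, FAA2 and CAT2 0.97 and FOX2 and POX1 0.91. CTA1 had r of -0.91 with ECI1, -0.90 with PEX11 and -0.86 with FOX2, whereas POT1 had 0.88 with FAA2 and 0.83 with CAT2 but 0.49 with FOX2 and 0.43 with POX1. These coefficients describe 12 arrays in 4 groups and so mostly restate the group means.

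Among 1159 genes with an SD of at least 0.5 over the arrays, those outside the 10 whose values were most like those of POT1 were TKL2 (YBR117C, r = 0.98), IME1 (YJR094C, 0.97), SPS100 (YHR139C, 0.95), EDS1 (YBR033W, 0.94) and FMP45 (YDL222C, 0.94). TKL2 encodes a transketolase, IME1 the master regulator of meiosis, and SPS100 a protein of the spore wall. FMP45 had mean log2 values of 12.54 in tup1Δ in rapamycin, 10.08 in tup1Δ in DMSO, 9.29 in WT in rapamycin and 9.08 in WT in DMSO. IME1 had means of 10.65, 8.85, 8.46 and 8.71 in the same groups and, like POT1, was lowest in WT in rapamycin. TKL2 and EDS1 were also lowest there, with means of 9.30 and 8.48 against 9.53 and 8.59 in WT in DMSO. SPS100 and FMP45 were lowest in WT in DMSO. These genes were picked by r with POT1 on the same arrays, so their likeness to it follows from the choice. Only POX1 had another member, FOX2, among its own 5 most similar genes, but 6 of the 10 had an SD under 0.5 and so could not appear in the list of another.

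**Figure D3:**
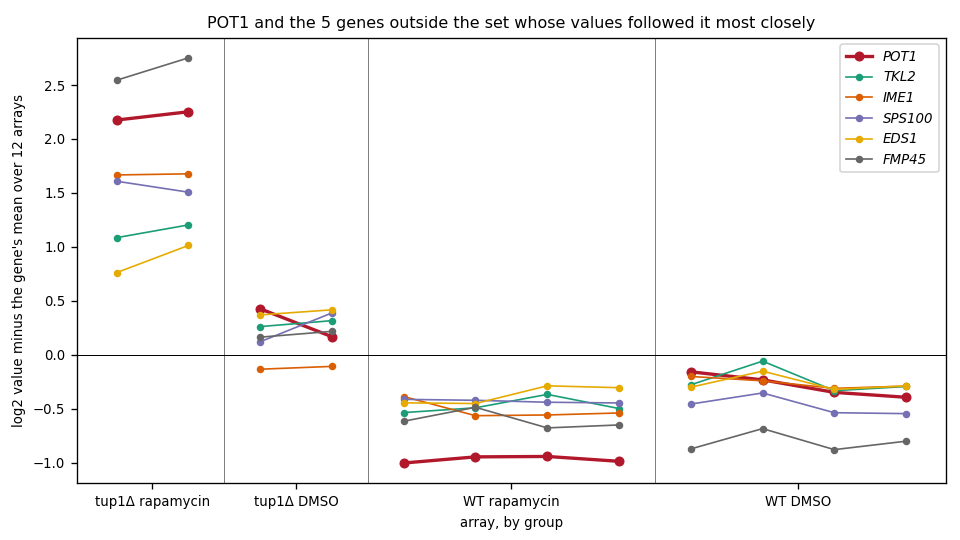
Log2 values of POT1 and of the 5 genes outside the set with the highest r to it, each minus its own mean over the 12 arrays (y axis), by array (x axis). All 6 genes are highest on the 2 tup1Δ rapamycin arrays, and POT1 lies lowest of the 6 on the 4 WT rapamycin arrays.

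Of 7 regulators, ADR1 (YDR216W), an activator of peroxisomal and other glucose-repressed genes, differed most between the strains. It had log2 values of 12.60 and 12.53 in tup1Δ in rapamycin and 12.45 and 12.43 in tup1Δ in DMSO, and WT had 10.04, 9.99, 9.64 and 9.62 in rapamycin and 10.36, 10.43, 10.71 and 10.71 in DMSO. All tup1Δ arrays were above all WT arrays, and the WT rapamycin arrays were below the WT DMSO arrays. ADR1 was higher in tup1Δ by a log2 fold change of 2.74 in rapamycin (standard error 0.14, adjusted p = 4.41e-08) and of 1.89 in DMSO (standard error 0.14, adjusted p = 1.3e-06). With rapamycin its log2 fold change was 0.13 (adjusted p = 0.539) in tup1Δ and -0.73 (adjusted p = 0.000156) in WT, and the responses differed by 0.86 (adjusted p = 0.0272), none of these called. With WT replicates 3 and 4 alone, the WT value was -1.08 and the difference 1.21, which are calls, and with WT replicates 1 and 2 alone they were -0.38 and 0.51.

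MIG1 (YGL035C), the glucose repressor, was also higher in tup1Δ in rapamycin, with log2 values of 12.18 and 12.23 against 10.99, 11.25, 10.94 and 10.97 in WT. The groups did not overlap, with a difference of 2.25-fold (log2 fold change 1.17, standard error 0.10, adjusted p = 3.13e-06). In DMSO it was 0.35 (adjusted p = 0.0136), below the fold threshold, and 0.25 and 0.46 with WT replicates 1 and 2 and with WT replicates 3 and 4. MIG1 had rapamycin log2 fold changes of 0.32 (adjusted p = 0.0334) in tup1Δ and -0.50 (adjusted p = 0.000188) in WT.

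The partners of the oleate response were called in no comparison. PIP2 (YOR363C) had log2 fold changes with rapamycin of 0.66 (adjusted p = 0.000641) in tup1Δ and 0.80 (adjusted p = 5.65e-06) in WT, while between the strains it had -0.28 (adjusted p = 0.0425) in rapamycin and -0.14 (adjusted p = 0.295) in DMSO. OAF1 (YAL051W) stayed between -0.10 and 0.19 in the 5 comparisons, and OAF3 (YKR064W), a negative regulator, between -0.22 and 0.23. SNF1 (YDR477W), the kinase, had -0.19 in tup1Δ and -0.25 in WT with rapamycin (adjusted p = 0.0852 and 0.00414). CYC8 (YBR112C), the partner of Tup1, lay between -0.06 and 0.08. Their messenger levels say nothing of the activity of the proteins.

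**Figure D4:**
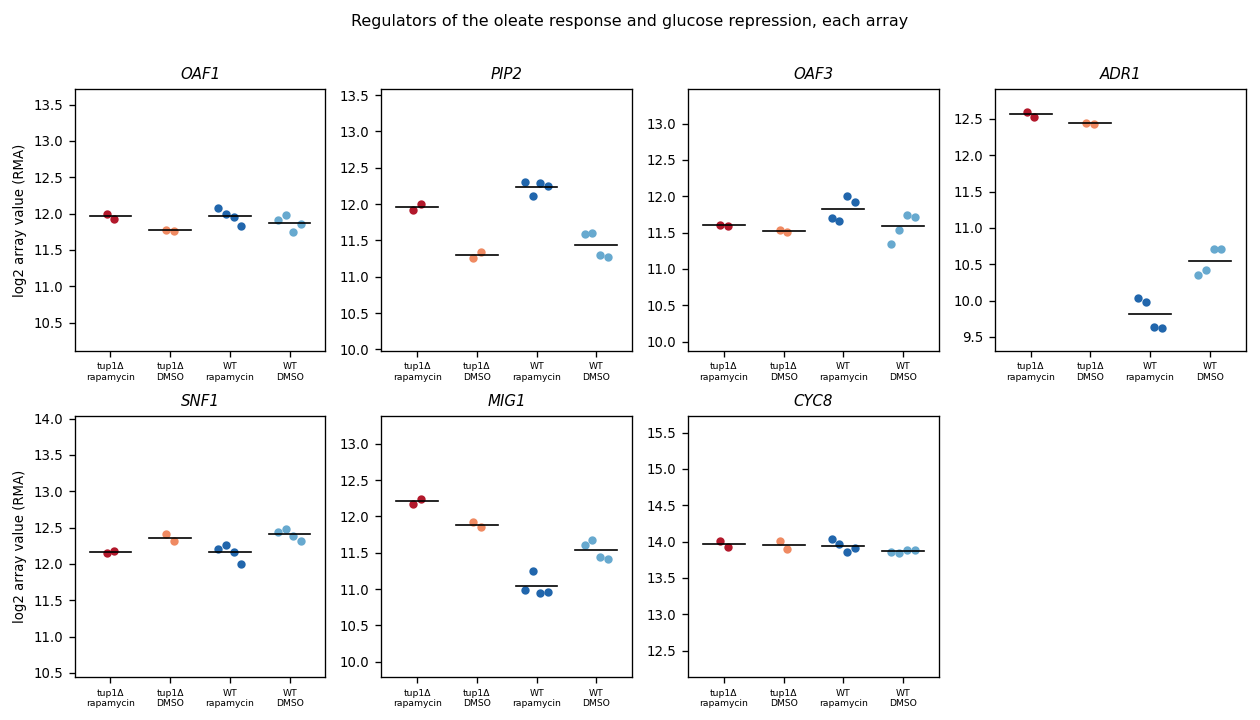
Log2 array values (y axis, 1 point for each array, bar at the group mean) of 7 regulators in tup1Δ in rapamycin and in DMSO (n = 2 each) and in WT in rapamycin and in DMSO (n = 4 each), with panels of equal height. The 4 tup1Δ points of ADR1 lie between 12.43 and 12.60, above the 8 WT points.

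Other genes around the pathway were taken from lists. Of 16 further genes of peroxisomal and acyl-CoA metabolism, 6 rose and 0 fell with rapamycin in tup1Δ, and 6 rose and 0 fell in WT, while 0 were called between the strains or in the difference of the responses. Over all genes 5.34% were called higher and 6.52% lower with rapamycin in tup1Δ, and 5.41% and 7.8% in WT. Between the strains 4.52% were called higher and 0.867% lower in rapamycin, and 4.13% and 0.451% in DMSO. In the difference 0.78% and 0.381% were, so the 0 calls in these comparisons are near the background. In tup1Δ the log2 fold changes were 2.43 for CIT2 (YCR005C), the peroxisomal citrate synthase, 2.07 for YAT2 (YER024W) and 1.43 for YAT1 (YAR035W), further carnitine acetyltransferases, 1.84 for PXA2 (YKL188C) and 1.11 for PXA1 (YPL147W), the subunits of the fatty acyl-CoA transporter, and 1.82 for CRC1 (YOR100C), the mitochondrial carnitine carrier. In WT they were 2.72 for CRC1, 2.25 for CIT2, 2.18 for YAT2, 1.62 for PXA2, 1.60 for the malate synthase MLS1 (YNL117W) and 1.08 for YAT1. MLS1 has a close paralog, DAL7 (YIR031C), whose log2 fold change with rapamycin was 3.93 in WT and 3.10 in tup1Δ, so the value of MLS1 is uncertain where probes are shared. The median log2 fold change of the 16 was 0.45 in tup1Δ and 0.47 in WT with rapamycin, and between the strains it was -0.06 in rapamycin and -0.03 in DMSO. The medians over all genes in these comparisons were 0.03, 0.06, -0.09 and -0.08. Between the strains in rapamycin, 5 of the 16 were higher in tup1Δ and 2 lower at an adjusted p under 0.05 and any fold. Over all genes these shares were 16.2% and 27.5%. Of the 5, YAT1 had the largest log2 fold change, 0.95, and PXA1 had 0.65. The 2 lower were MLS1 at -0.66 (adjusted p = 0.000892) and ANT1 (YPR128C) at -0.31 (adjusted p = 0.00152). In the difference of the responses, PXA1 was higher at 0.87 (adjusted p = 0.00336). There the 2 lower were again MLS1, at -0.65 (adjusted p = 0.0393), and ANT1, at -0.43 (adjusted p = 0.00921). Over all genes 3.48% were higher and 2.29% lower in the difference.

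Of 28 peroxins, the proteins that build and import into peroxisomes, with PEX11 not counted among them, 1 was called in each of 3 comparisons. These were with rapamycin in tup1Δ, with rapamycin in WT and between the strains in rapamycin. That is no more than the 5.34%, 5.41% and 4.52% of all genes called higher there, so no result is read from these calls. At an adjusted p under 0.05 and any fold, 14 were higher and 2 lower with rapamycin in tup1Δ, against 29.6% and 23.5% of all genes. In WT 16 were higher and 1 lower, against 37.8% and 28.4%. Between the strains in rapamycin 2 were higher and 11 lower, against 16.2% and 27.5%, with a median of -0.21. PEX18 (YHR160C) rose with rapamycin in tup1Δ (log2 fold change 1.07, adjusted p = 4.22e-06) and was higher in tup1Δ than in WT in rapamycin (1.06, adjusted p = 2.27e-06). PEX21 (YGR239C), its paralog, rose with rapamycin in WT (1.09, adjusted p = 1.65e-07) and had 0.36 in tup1Δ (adjusted p = 0.0134). Both serve as coreceptors for import by the PTS2 signal, the signal that Pot1 carries. Their responses differed between the strains in opposite directions, by 0.93 for PEX18 (adjusted p = 0.000885) and by -0.73 for PEX21 (adjusted p = 0.0054), neither past the fold threshold. Of 7 genes of fatty acid synthesis, the elongase gene ELO2 (YCR034W) fell with rapamycin in WT (-1.003, adjusted p = 0.000299), where 7.8% of all genes were called lower. In the other comparisons 0 of the 7 were called, where at most 5.34% of all genes were called higher and 6.52% lower. No result is read for this group either.

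**Figure D5:**
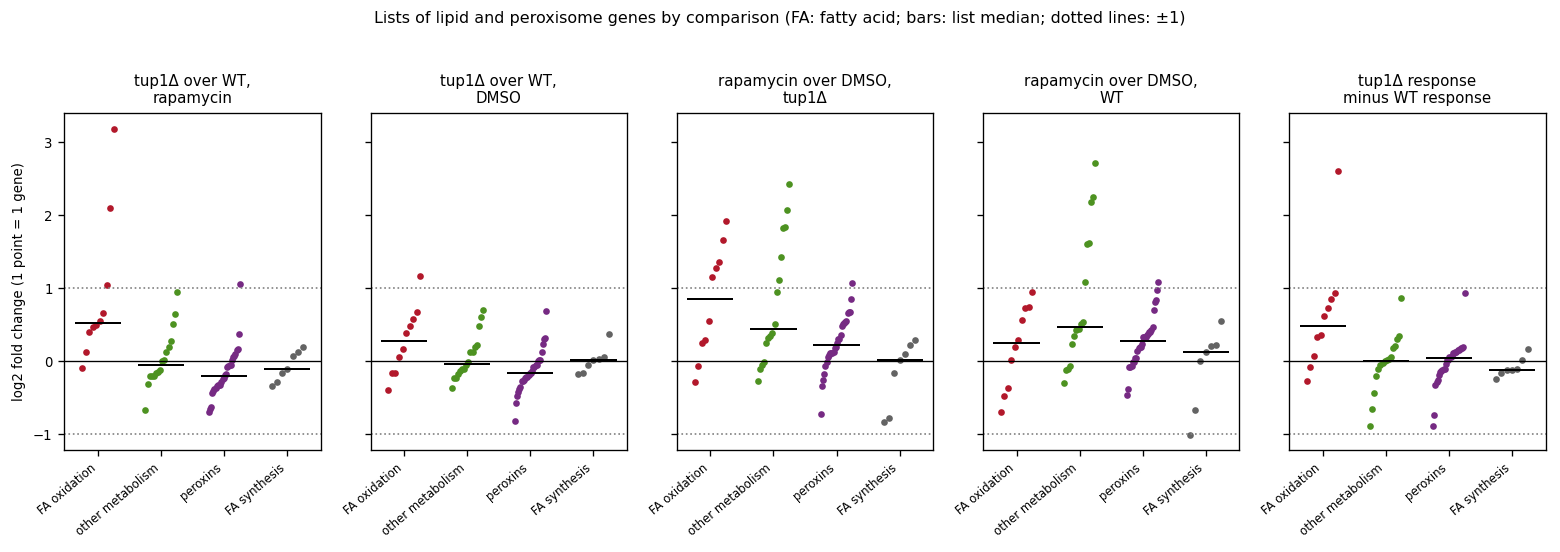
Log2 fold changes (y axis, 1 point for each gene, bar at the median) of the 10 fatty acid oxidation genes, 16 other genes of peroxisomal and acyl-CoA metabolism, 28 peroxins and 7 genes of fatty acid synthesis in the 5 comparisons. Dotted lines mark -1 and 1. Between the strains in rapamycin the median is 0.53 for the 10 genes and -0.06 for the 16.

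SPS19 lies beside SPS18 (YNL204C) on chromosome XIV, a pair singled out after the values were seen. SPS18 had log2 values of 10.10 and 10.20 in tup1Δ in rapamycin and 10.62 and 10.63 in tup1Δ in DMSO, and of 9.498, 9.33, 9.45 and 9.56 in WT in rapamycin against 10.86, 11.05, 11.11 and 11.11 in WT in DMSO. It fell with rapamycin in WT (log2 fold change -1.57, adjusted p = 3.74e-09), had -0.48 in tup1Δ (adjusted p = 0.00146), and its responses differed by 1.10 (adjusted p = 0.000223), which was called. In both SPS18 and SPS19, the WT rapamycin arrays were below all other arrays. The only other measured neighbour of the 10 genes that was called was RRN11 (YML043C), beside CAT2, which fell with rapamycin in tup1Δ (-1.23) and in WT (-1.75), where CAT2 had 1.66 and 0.73. Over all genes 6.52% were called lower with rapamycin in tup1Δ and 7.8% in WT, and no result is read for the neighbours as a group.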

How the data were processed

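Cy3-labeled cDNA was hybridized to one-color NimbleGen arrays. The authors took the signals from NimbleScan and applied Robust Multi-array Average (RMA) in a run that also held other arrays of theirs, and the deposited values are on the log2 scale, 1 for each gene on each array. Because RMA equalizes the distributions of the arrays, it would hide a shift shared by all genes. The versions of NimbleScan and RMA are not given in the sources used here, and no detection flag was used, so no gene was marked as below background. Rows empty on all arrays were dropped, no row was empty on some arrays only, and 5769 genes remained. ORF names were looked up in a RefSeq table for R64, where 5763 of them were found.

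The values were fitted as deposited with limma 3.58.1 (lmFit and eBayes) in R 4.3.3, with a mean for each of the 4 groups, 8 residual degrees of freedom and 2.8 prior degrees of freedom. The fit was tested before use on simulated data with planted changes larger than the fold threshold. The noise there was independent between arrays, so that test cannot show how the WT pairs and split cultures affect the adjusted p-values.

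The 10 genes were listed by ORF name with no threshold on their values, but they, the other lists and the tests were chosen with earlier results of these data known. Named are all 10 genes, TUP1, all 7 regulators, from each other list the called genes with the largest changes (at most 4 for each comparison), and the 5 genes most like POT1. More than 4 are named for the 16 metabolic genes, and ANT1, DAL7, SPS18 and RRN11 are outside this rule, all chosen after their values were seen.

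By the series' design text, WT arrays with the same number come from one culture split between the treatments. After subtraction of the group means, such arrays correlated over genes with r of 0.745, 0.119, 0.531 and 0.535 for replicates 1 to 4, and the numbered tup1Δ arrays with r of 0.0637. Alternatives covered normalization, a filter on dim genes, the arrays in the fit, the variance prior, the fold threshold, a replicate block, the pairs of WT arrays and each array left out in turn.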

Additional observations from a re-analysis of the deposited data

Results flagged for a closer look

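The rapamycin response differed between the strains, by a test of the difference itself at an adjusted p under 0.05 in limma and any fold, in 6 of the 10 genes and 2 of the 7 regulators, all with a higher value in tup1Δ, where 3.48% of all genes were higher and 2.29% lower. The response in tup1Δ minus that in WT was 2.60 for POT1 (adjusted p = 3.08e-07), 0.93 for CAT2 (adjusted p = 0.000841), 0.86 for POX1 (adjusted p = 0.000323), 0.72 for SPS19 (adjusted p = 0.0345), 0.61 for FOX2 (adjusted p = 0.00401) and 0.36 for FAA2 (adjusted p = 0.0482) on the log2 scale. It was 0.86 for ADR1 (adjusted p = 0.0272) and 0.82 for MIG1 (adjusted p = 0.00471). POT1 alone among these also passed the fold threshold. The ADR1 value ran from 0.51 to 1.21 over 19 other settings. For ADR1, FAA2 and SPS19 the adjusted p did not stay under 0.05 in all of the other settings.

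One array stood apart from the others of its group of 4 by Dixon's test. In WT in rapamycin, MIG1 had 11.25 on replicate 2 against 10.94 to 10.99 on the others, a gap of 0.835 of the group's range. Of 34 such groups of WT arrays tested for the 10 genes and 7 regulators, chance is expected to single out about 1.7.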

How the results depend on the processing

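Of the 10 genes, 6 lie among the dimmest 25% of genes. Without these only 4 of the 10 were tested, and the calls numbered 0 between the strains in DMSO, 1 with rapamycin in tup1Δ, 0 between the strains in rapamycin and 0 in the difference of the responses. With no fold threshold the calls were 5 between the strains in DMSO, 9 with rapamycin in WT, 8 with rapamycin in tup1Δ, 7 between the strains in rapamycin and 6 in the difference, where 42.6%, 66.2%, 53.1%, 43.7% and 5.77% of all genes passed. At a log2 fold threshold of 1.5 they were 0 between the strains in DMSO and 2 with rapamycin in tup1Δ (POT1 and CAT2, with FOX2, ECI1 and POX1 lost), and 2 between the strains in rapamycin, with FAA2 lost. With rapamycin in WT, leaving out each array in turn gave 0 to 1 calls, the 1 being ECI1 without WT DMSO replicate 1, and WT replicates 3 and 4 alone gave 1, also ECI1. WT replicates 1 and 2 alone gave 2 calls in the difference, POT1 and CAT2. The replicate block joined arrays of the same number within each strain, although the design text gives split cultures for WT only. It was a fixed term for the rapamycin responses and their difference, and a random one between the strains. With the replicate block the calls were 1 between the strains in DMSO, 0 with rapamycin in WT, 5 with rapamycin in tup1Δ, 3 between the strains in rapamycin and 1 in the difference, the same counts as without it. Quantile normalization, median centring, fitting only the groups compared and the trended robust prior also left the 5 counts as they were.

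Apart from changes of the fold threshold, 686 of 700 values of the 10 genes and 489 of 511 of the regulators kept their direction and their side of the thresholds. The values that changed sign all belong to genes that were not called. With WT replicates 1 and 2 alone, OAF3 between the strains in DMSO was 0.084, SNF1 and CYC8 between the strains in rapamycin were -0.068 and -0.039, and PIP2 in the difference was 0.043. With WT replicates 3 and 4 alone, PIP2 and SNF1 between the strains in DMSO were 0.010 and 0.0069, DCI1 and CYC8 with rapamycin in WT were -0.041 and -0.0060, OAF1 between the strains in rapamycin was 0.070, and CYC8 in the difference was 0.018. With median centring, DCI1 with rapamycin in WT was -0.017 and OAF1 between the strains in rapamycin was 0.0046. With each array left out in turn, DCI1 ran from -0.10 to 0.11 with rapamycin in WT, from -0.21 to 0.080 with rapamycin in tup1Δ and from -0.22 to 0.068 in the difference, and CTA1 ran from -0.0095 to 0.16 in the difference. SNF1 ran from -0.095 to 1e-04 between the strains in DMSO and from -0.047 to 0.041 between them in rapamycin, CYC8 from -0.046 to 0.070 with rapamycin in tup1Δ and from -0.019 to 0.061 between the strains in rapamycin, and OAF1 from -0.046 to 0.034 there. The cause was not tested. With no detection flag and 2 arrays for each tup1Δ group, small differences of dim genes are least certain.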
